A study of Mus musculus with 8 samples.

Results

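The 10 genes described here encode the chromosomal passenger complex (Birc5, Aurkb, Cdca8 and Incenp) and proteins of cytokinesis (Prc1, Kif23, Racgap1, Ect2, Anln and Cep55). They were chosen by name, and every probe set annotated to 1 of these symbols alone was read, giving 24 probe sets for 10 of the 18193 genes measured by such probe sets. All 24 stayed in the test, since no filter on low signal was applied. Where a gene had several probe sets (8 of the 10), the one with the highest mean log2 signal over the 8 arrays stood for it and is called its main probe set.

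The study compared whole optic nerves of C57BL/6 mice aged 35 to 45 days, kept for 3 days in organotypic culture with 20 mM lithium chloride (Lithium, 4 arrays) or in the same medium with saline in its place (Control, 4 arrays). The labels give 6 nerves per sample, and the study's methods, which name another background strain (C57/BL10), took the nerves with the retina attached. The number of nerves and mice behind a sample is not settled, since the methods and the design text give numbers that differ from this label. Each array measured RNA of all the cells of the pooled nerves, so that fewer cells of a type and less RNA per cell cannot be told apart in any value below. The sources do not tie an array to its own animals, so the spread that the p-values measure is that between these samples and may be technical only.

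The chromosomal passenger complex joins the kinase Aurora B (Aurkb) to the scaffold Incenp, survivin (Birc5) and borealin (Cdca8), the last of these serving with survivin to place the complex on chromosomes. In mitosis it corrects faulty attachments of chromosomes to the spindle, and in anaphase it moves to the spindle midzone. There Prc1 bundles antiparallel microtubules, and centralspindlin, made of the kinesin Kif23 and the GTPase-activating protein Racgap1, brings in Ect2, the exchange factor that activates RhoA. RhoA drives the contractile ring, which anillin (Anln) ties to septins and to the membrane, and Cep55 at the midbody recruits the ESCRT machinery that cuts the last bridge. Transcripts of most of these genes peak in G2 and M phase. Anillin is also known as part of the septin scaffold of central nervous system myelin, and so is made by mature oligodendrocytes that no longer divide.

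Lithium cultures held less RNA for most of these genes. With limma, arrays unpaired, and Benjamini-Hochberg adjustment over all 45037 probe sets, 6 of 10 genes fell (Birc5, Aurkb, Cdca8, Prc1, Ect2 and Cep55) and none rose. By the same rule 2.05% of all genes fell and 1.18% rose. None of the 24 probe sets was higher at an unadjusted p under 0.05. When arrays were blocked by replicate number, only 2 of the 10 passed (Prc1 and Cep55), beside 0.346% of all genes. Unless the block is named, "fell" refers to the unpaired fit. Counted by probe set, 10 of 24 fell, beside 1.39% of all probe sets. Each lithium value lay below each control value for 9 of the 10 genes (8.92% of all genes) and for 16 of 24 probe sets (6.44% of all probe sets). The median log2 fold change, lithium minus control, was -2.40 over the 10 genes and -0.00 over all genes.

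**Figure D1:**
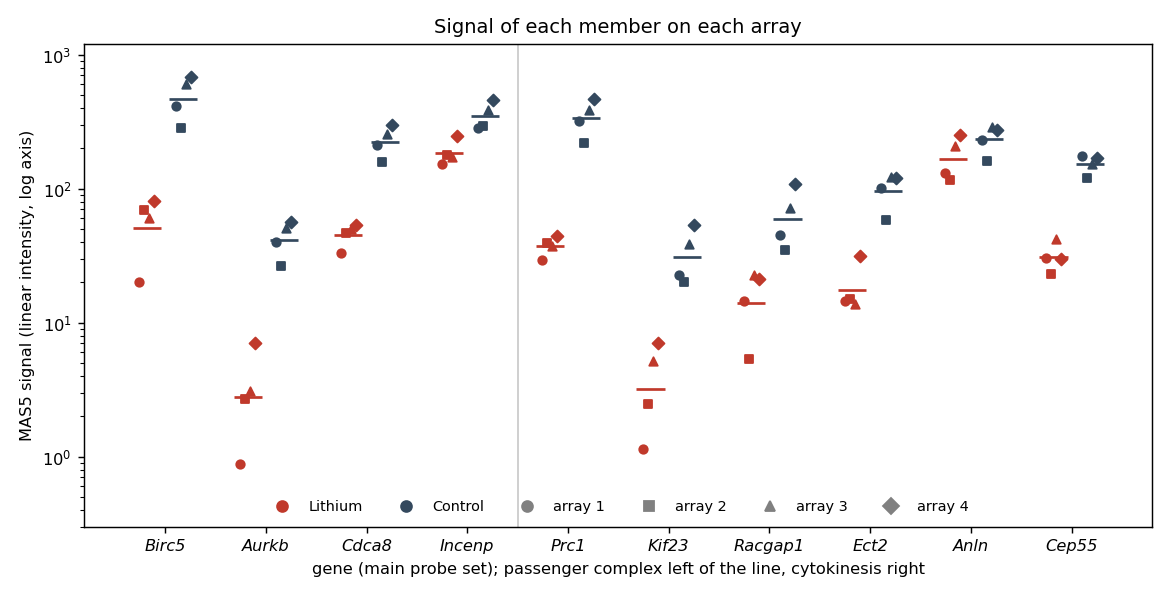
Signal of each gene's main probe set on each array (linear MAS5 intensity on a log axis), lithium in red left of control in dark blue, with a marker shape for each array number and a line at the mean of the log2 values. The lithium points lie under all control points for 9 genes, and for Anln they run from 115 to 253 beside 161 to 289 in control.

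Lithium array 1 stood apart in overall brightness. Its median signal was 12.3, against 15.2 to 16.5 on the other lithium arrays and 14.8 to 17.5 on control arrays, at a trimmed mean of 100 on each array. It also gave the lowest lithium signal for 6 of the 10 genes. Results that rest on it are given without it below. A background level was taken from 27 probe sets for bacterial spike-in RNA, which was assumed not to have been added to these samples. The highest of them, called the spike-in level, is taken here as the level below which a signal cannot be told from background. It reached 3.56 to 4.33 on lithium arrays and 2.13 to 5.64 on control arrays.

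Promoters of late cell-cycle genes often hold a cell cycle genes homology region (CHR, TTTGAA or TTTAAA) near the start site, which the MuvB complexes bind, and upstream CCAAT boxes, which NF-Y binds. RefSeq windows of build GRCm38.p6, from 250 bases before to 50 bases after a start, were at hand for 8 of the 10 genes (Aurkb and Incenp had none in the table used). Stretches from base -90 to base 30 are shown for 5 genes, with CCAAT or its reverse complement ATTGG and TTTGAA or its reverse complement TTCAAA in capitals: Cdca8, Prc1, Ect2 and Cep55, whose RNA fell, and Anln, whose RNA did not pass the test. Position 1 is the first transcribed base, and for the genes with several starts the most downstream one is used.
Cdca8 (chr4:124936888-124937007, minus strand): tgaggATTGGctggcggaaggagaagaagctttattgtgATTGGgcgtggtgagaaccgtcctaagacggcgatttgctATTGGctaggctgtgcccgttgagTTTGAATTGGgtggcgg
Prc1 (chr7:80294386-80294505, plus strand): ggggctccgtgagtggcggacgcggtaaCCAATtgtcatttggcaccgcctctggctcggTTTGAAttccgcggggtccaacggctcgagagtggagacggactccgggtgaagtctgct
Ect2 (chr3:27153825-27153944, minus strand): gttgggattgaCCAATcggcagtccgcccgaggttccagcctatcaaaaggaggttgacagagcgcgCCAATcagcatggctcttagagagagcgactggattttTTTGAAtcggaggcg
Cep55 (chr19:38054951-38055070, plus strand): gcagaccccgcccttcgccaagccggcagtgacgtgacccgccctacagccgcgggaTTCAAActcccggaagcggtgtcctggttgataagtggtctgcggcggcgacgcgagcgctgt
Anln (chr9:22389177-22389296, minus strand): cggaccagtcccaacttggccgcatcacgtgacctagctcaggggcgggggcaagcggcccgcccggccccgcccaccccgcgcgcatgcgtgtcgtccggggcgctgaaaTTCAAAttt

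On both strands, TTTGAA was present in the windows of 7 of the 8 genes, beside 17.9% of 32851 windows in the table, and CCAAT in 5 of the 8, beside 37.4%. In Cdca8 the TTTGAA at bases 14 to 19 shares a base with the reverse CCAAT at 19 to 23. In Prc1, TTTGAA lies at -30 to -25 with CCAAT at -62 to -58, and in Cep55 it lies reversed at -33 to -28 with no CCAAT in the stretch. Anln held it reversed at 22 to 27 and forward at 29 to 34. Kif23 (3 to 8) and Racgap1 (6 to 11), which are not shown and did not pass the test either, held TTTGAA too. The match was therefore shared by genes that fell and genes that did not pass. Birc5 held no TTTGAA and was the 1 gene of the 8 with TTTAAA (-220 to -215), a string found in 13.2% of windows. The E2F-type string GCGGGAA was in 0 of 8 windows and in 4.6% of all. These are matches of letters, counted per start window over the table, and not measured sites.

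Survivin binds the tail of histone H3 and so places the passenger complex at centromeres. Birc5 (RefSeq locus, same build, chr11:117849237-117855743) had signals of 20, 69.8, 60.3 and 81.2 on lithium arrays 1 to 4, against 416, 283, 599 and 676 on control arrays 1 to 4. Array 1 was the lowest of the lithium values, and the groups did not overlap. The means were 57.8 ± 26.6 in lithium and 493 ± 178 in control (SD, n = 4 each), and the log2 fold change was -3.19 (SE 0.50, 9.13-fold lower, limma adjusted p = 0.0338). Blocking on the replicate number gave an adjusted p of 0.0753. Leaving out 1 array at a time, Birc5 passed only without lithium array 1 (log2 fold change -2.74, adjusted p = 0.0400), and the adjusted p reached 0.0907 without control array 4.

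Aurora B phosphorylates kinetochore proteins and, later, midzone proteins. Aurkb (chr11:69045624-69051664) had signals of 0.881, 2.69, 3.1 and 7.09 on lithium arrays 1 to 4, against 39.7, 26.4, 51 and 56.4 on control arrays 1 to 4. The first 3 lithium values were under the highest spike-in probe set of their own array, so the lithium level is near background there, while all 4 control values were well above it. The fitted log2 fold change was -3.91 (SE 0.59, 95% interval -5.30 to -2.52, adjusted p = 0.0305) with values under 1 set to 1, and its size depends on that floor: it was -1.59 (adjusted p = 0.00764) on the log2(signal + 16) scale. The second probe set gave -3.07 without passing the test (adjusted p = 0.0682). The block gave an adjusted p of 0.0666, and of the single arrays left out, only lithium array 1 (adjusted p = 0.0430) and lithium array 4 (0.0317) left the gene past the threshold, the others giving up to 0.0849.

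Borealin binds survivin and Incenp to complete the targeting module of the complex. Cdca8 (chr4:124918465-124936917) had signals of 32.9, 46.3, 49.7 and 53.2 on lithium arrays 1 to 4, against 210, 158, 256 and 300 on control arrays 1 to 4. The highest lithium value was less than the lowest control value by a wide margin, and the spread within lithium was small. The means were 45.5 ± 8.89 in lithium and 231 ± 61 in control (SD, n = 4 each), and the log2 fold change was -2.33 (SE 0.24, 5.02-fold lower, adjusted p = 0.0140). Its other probe sets fell as well, with log2 fold changes of -3.22 (adjusted p = 0.0323) and -2.01 (adjusted p = 0.0463). Cdca8 passed the test with any 1 of the 8 arrays left out (adjusted p 0.0231 to 0.0489) but not with the replicate block (0.0540).

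Incenp, the scaffold that the other members of the complex bind, differed least of the 4. Incenp (chr19:9872295-9899489) had signals of 152, 179, 173 and 246 on lithium arrays 1 to 4, against 283, 294, 386 and 458 on control arrays 1 to 4. The groups did not overlap, but the gap between the nearest values was small. The log2 fold change was -0.92 (SE 0.21, 95% interval -1.42 to -0.42) and missed the threshold (adjusted p = 0.0801). A second probe set averaged 15.9 ± 4.78 in lithium and 34.2 ± 7.28 in control (SD, n = 4 each), with a log2 fold change of -1.13 (adjusted p = 0.0886). The other 3 probe sets of Incenp were dim, overlapped between groups and had adjusted p-values of 0.597 to 0.709. The main probe set passed only under 3 alternatives: a minimum signal before the test (adjusted p = 0.02), the trended and robust variance (0.0461), and a term for arrays 1 and 2 against 3 and 4 (0.0236).

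**Figure D2:**
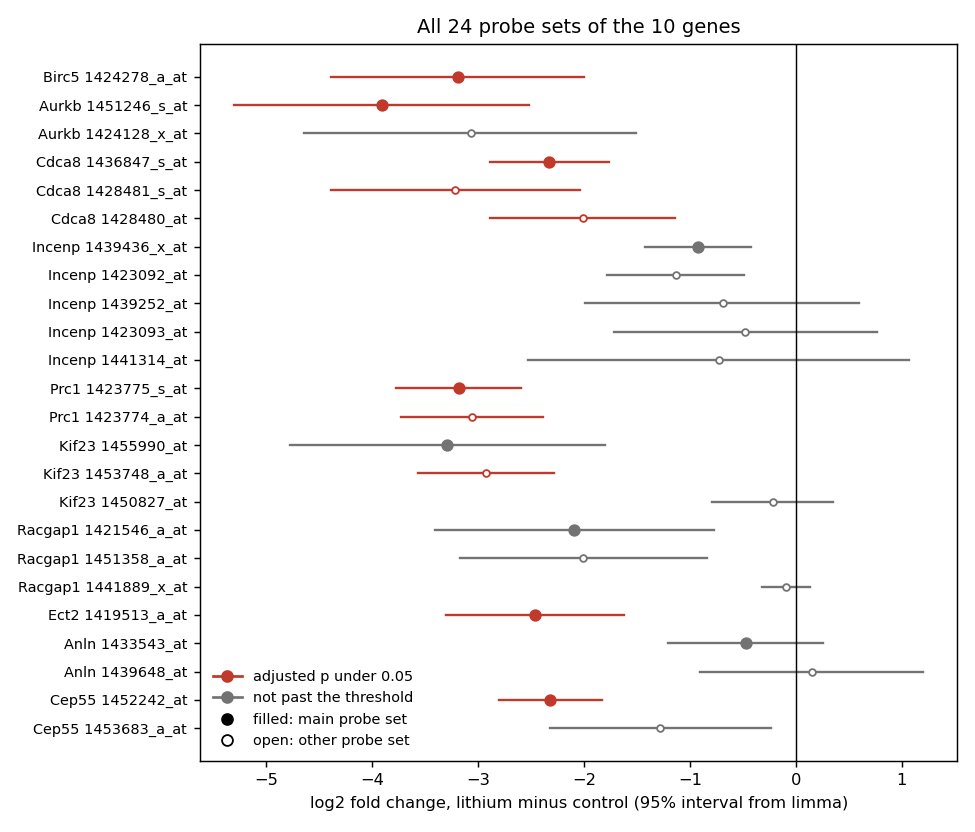
Log2 fold change, lithium minus control, of the 24 probe sets (x axis) with 95% intervals from limma, filled points for main probe sets and red for an adjusted p under 0.05. Of the 24, 23 lie below 0 and 10 passed the test, and the 1 probe set above 0 is the second of Anln (0.15).

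Among the genes of cytokinesis, Prc1, the microtubule bundler on which the midzone is built, fell most clearly. Prc1 (chr7:80294445-80316259) had signals of 29.4, 39, 37.2 and 44 on lithium arrays 1 to 4, against 317, 219, 389 and 466 on control arrays 1 to 4. The lithium values lay close together and far below each control value. The means were 37.4 ± 6.08 in lithium and 348 ± 105 in control (SD, n = 4 each), and the log2 fold change was -3.18 (SE 0.25, 9.04-fold lower, adjusted p = 0.0104). Its second probe set gave -3.06 (adjusted p = 0.0134). Prc1 passed with the replicate block (adjusted p = 0.0487) and with any 1 array left out (0.0156 to 0.0391).

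Kif23, the motor subunit of centralspindlin, and Racgap1, its partner, were lower on each lithium array without passing the test. Kif23 (chr9:61917277-61946810) had signals of 1.15, 2.48, 5.19 and 7.02 on lithium arrays 1 to 4, against 22.8, 20, 38.4 and 53.8 on control arrays 1 to 4. Lithium values 1 and 2 were under the highest spike-in probe set of their array. The log2 fold change was -3.29 (SE 0.63, 95% interval -4.77 to -1.80), with an adjusted p of 0.0508, just above the threshold of 0.05. A dimmer probe set of Kif23 fell (adjusted p = 0.0137): it had 0.124, 0.543, 0.454 and 0.612 on lithium arrays, all under the spike-in level, against 5.52, 5.32, 9.33 and 12.1 on control arrays, of which the first was also under it. All 4 lithium values were set to the floor of 1, so they had no spread in the fit and the p-value rests on that floor. The limma adjusted p of this probe set was 0.0254 on the log2(signal + 16) scale and 0.0564 with the replicate block. Set against the spike-in level in lithium, this probe set was at least 1.94-fold lower. The third probe set was under the spike-in level in both groups. Among 8 other settings, the gene passed in 7, with adjusted p-values of 0.00837 to 0.0472, and missed with the replicate block (0.0575). It passed with none of the 8 arrays left out in turn (0.0551 to 0.126).

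Racgap1 (chr15:99620496-99651656) had signals of 14.5, 5.4, 22.6 and 21.3 on lithium arrays 1 to 4, against 45.4, 34.9, 71.8 and 108 on control arrays 1 to 4. In each group array 2 was the lowest, and the groups did not overlap. The means were 16 ± 7.89 in lithium and 64.9 ± 32.4 in control (SD, n = 4 each), with a log2 fold change of -2.09 (SE 0.56, 95% interval -3.41 to -0.77, adjusted p = 0.111). A second probe set had a like value, -2.01 (adjusted p = 0.0936), and passed with the replicate block (0.0394). The third was under the spike-in level in both groups. Among the alternatives, the main probe set passed only with the term for arrays 1 and 2 against 3 and 4 (0.0257).

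Ect2, the exchange factor that centralspindlin brings to the midzone, fell. Ect2 (chr3:27097222-27154253) had signals of 14.4, 15, 13.8 and 31.7 on lithium arrays 1 to 4, against 101, 58.4, 123 and 120 on control arrays 1 to 4. Lithium array 4 stood above the other 3 lithium arrays but below each control array. The means were 18.7 ± 8.68 in lithium and 100 ± 29.6 in control (SD, n = 4 each), and the log2 fold change was -2.46 (SE 0.36, 5.5-fold lower, adjusted p = 0.0268). With 1 array left out, Ect2 passed only without lithium array 4 (adjusted p = 0.0290) or control array 2 (0.0386), with values up to 0.0795 otherwise, and the replicate block gave 0.0649.

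Anln, the septin and actin scaffold, was the gene whose groups overlapped. Anln (chr9:22331214-22389211) had signals of 130, 115, 208 and 253 on lithium arrays 1 to 4, against 231, 161, 289 and 274 on control arrays 1 to 4. Arrays 3 and 4 exceeded arrays 1 and 2 in both groups, by more than the groups differed. The means were 177 ± 65.5 in lithium and 239 ± 57.4 in control (SD, n = 4 each), and the log2 fold change of -0.47 (95% interval -1.21 to 0.26) did not pass the test (adjusted p = 0.504). The second probe set had 38.1, 34.3, 86.4 and 100 on lithium arrays, against 53.4, 32.3, 77.5 and 55.9 on control arrays, a log2 fold change of 0.15 (95% interval -0.90 to 1.20, adjusted p = 0.922). These intervals do not show that anillin RNA was the same in both groups.

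Cep55, which recruits ESCRT proteins to the midbody, fell. Cep55 (chr19:38054970-38074425) had signals of 30.5, 23, 42.1 and 30 on lithium arrays 1 to 4, against 176, 121, 152 and 168 on control arrays 1 to 4. The means were 31.4 ± 7.92 in lithium and 154 ± 24.3 in control (SD, n = 4 each), and the log2 fold change was -2.32 (SE 0.21, 4.98-fold lower, adjusted p = 0.0133). Cep55 had the smallest SD for its mean among the 10 genes in control. It passed with the replicate block (adjusted p = 0.0487) and with any 1 array left out (0.0197 to 0.0435). Its second, dim probe set overlapped between groups (-1.28, adjusted p = 0.191).

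The number of genes past the threshold was smaller with any 1 array left out, as it was over all 45037 probe sets (169 to 617 passed, in place of 1050). Between 3 and 5 of the 10 passed with 1 array left out, and the 3 without control array 1, 3 or 4 or lithium array 2 or 3 were Cdca8, Prc1 and Cep55. When replicate numbers were blocked, 2 of 10 passed, Prc1 and Cep55, where 0.346% of all genes fell. With a term for arrays 1 and 2 against 3 and 4 in place of the block, 9 of 10 passed, where 2834 of all 45037 probe sets passed in place of 1050. No gene changed direction under any setting.

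**Figure D3:**
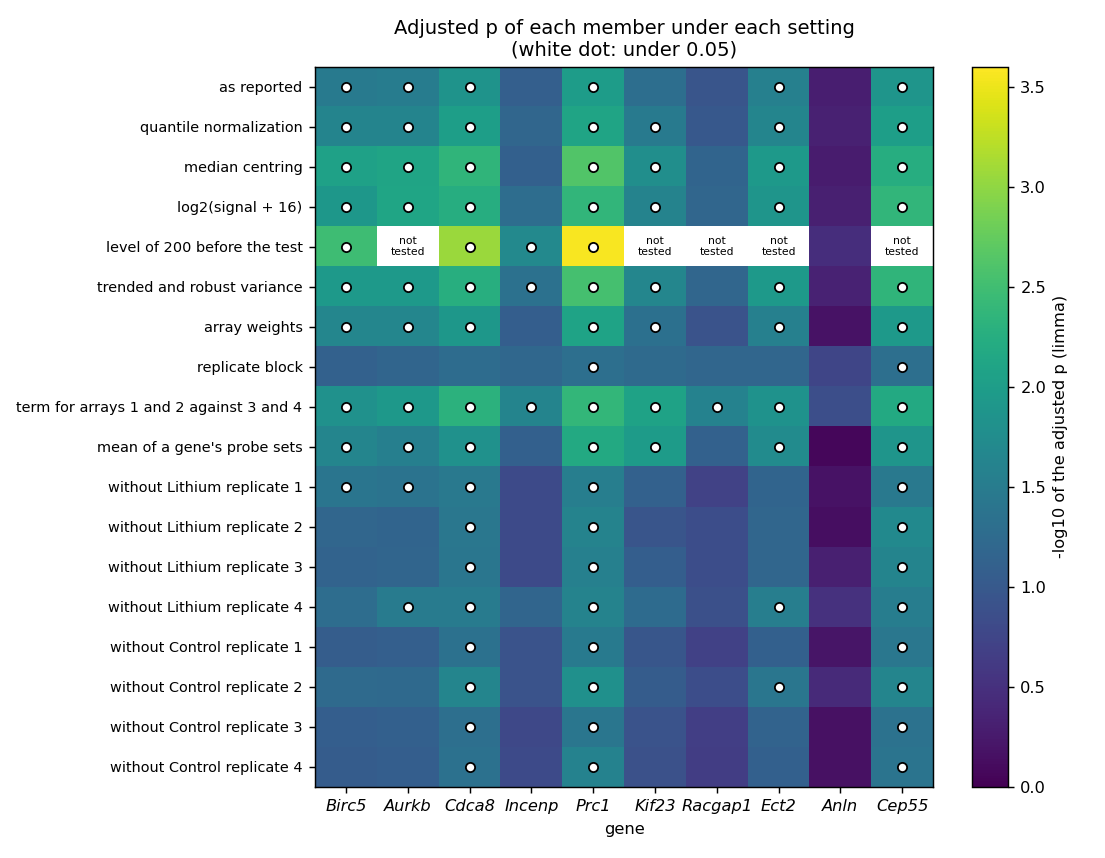
Adjusted p of each gene (columns) as reported and under 17 other settings (rows), coloured by -log10 of the adjusted p, with a white dot where it was under 0.05 and "not tested" where the minimum signal removed the gene. Prc1 has a dot in every setting in which it was tested, and Anln in none.

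Whether the genes of a complex differed alike was asked with 3 differences between log2 signals within an array, compared between groups by an exact permutation test. The difference between genes has no meaning as a level, since probe sets differ in brightness, but its change between groups does. Incenp minus the mean of Birc5, Aurkb and Cdca8 was 3.32 ± 0.54 in lithium and 1.09 ± 0.26 in control (SD, n = 4 each), so that the 3 partners were lower relative to the scaffold by 2.22 (exact p = 0.0286, two-sided, and 0.0286 adjusted over the 3 differences). The value is the smallest p that 4 against 4 arrays allow. Anln minus the mean of Prc1, Kif23, Ect2 and Cep55 was 3.40 ± 0.21 in lithium and 1.06 ± 0.13 in control (SD, n = 4 each), a change of 2.34 (exact p = 0.0286, adjusted 0.0286). Racgap1, the remaining gene of cytokinesis (log2 fold change -2.09), was not part of that mean. Neither pair of ranges overlapped. Both changes rest partly on signals near background, since Aurkb was under the spike-in level on 3 lithium arrays and Kif23 on 2. In alternatives added after seeing the data, the changes were 1.98 and 2.17 (adjusted p = 0.0429 each) with such values raised to the spike-in level, and 1.84 and 2.18 (exact p = 0.0286 each) with Aurkb and Kif23 left out. On the log2(signal + 16) scale the changes were 1.26 and 1.46. Paired by number, the same 2.22 and 2.34 had an exact p of 0.125, the smallest that 4 pairs allow.

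The subunits of centralspindlin gave no stable difference. Racgap1 minus Kif23 was 2.12 ± 1.10 in lithium and 0.92 ± 0.09 in control (SD, n = 4 each), a change of 1.20 (exact p = 0.0286, adjusted 0.0286). The change was -0.02 on the log2(signal + 16) scale (exact p = 1) and 0.69 without lithium array 1, where Kif23 was near background. With values under the spike-in level raised to it, the change was 0.55 (exact p = 0.143). Paired by number its exact p was also 0.125, and without any 1 control array the adjusted p was 0.0857.

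The genes varied together from array to array within a group. On control arrays, array 2 was the lowest for 9 of 10 genes and array 4 the highest for 7, and arrays 3 and 4 were both above arrays 1 and 2 for 9 of 10, beside 27.8% of all genes. On lithium arrays, array 1 was the lowest for 6 and array 4 the highest for 8, and arrays 3 and 4 were both above arrays 1 and 2 for 5 of 10, beside 30.8% of all genes. Over the 8 arrays, the deviations from the group means correlated with a mean Pearson r of 0.66 over the 45 gene pairs (0.06 to 0.97), with Cdca8 and Prc1 at 0.97 and Cep55 the loosest at a mean of 0.34. The points share their arrays and so their brightness and any difference in the make-up of the nerves, and the correlations are a description.

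Each of the 40 differences between same-numbered lithium and control arrays was below 0. For the 9 genes whose groups did not overlap this sign was fixed in advance, so only the differences of Anln could have gone the other way. The differences ran from -3.43 to -2.49 for Prc1 and from -1.16 to -0.72 for Incenp. For Aurkb (numbers 1 to 3) and Kif23 (numbers 1 and 2) the lithium value was under the spike-in level, so the size of those differences is not measured. For Birc5 the mean log2 difference was -3.20 on arrays 1 and 2 and -3.19 on arrays 3 and 4. For Prc1 it was -2.96 and -3.39, and for Cep55 -2.46 and -2.17, in the same order. All 10 genes were lower in lithium in both pairs of arrays, which for the genes without overlap could not be otherwise. None passed the test with 2 arrays a group by limma (lowest adjusted p 0.132 on arrays 1 and 2 and 0.114 on arrays 3 and 4). In each pair 9 of 10 had an unadjusted limma p under 0.05. The share of all genes under it in these fits was not counted, so this count cannot be judged and no conclusion is drawn from it. In the unpaired fit of all arrays, 8087 of 45037 probe sets were under that p.

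**Figure D4:**
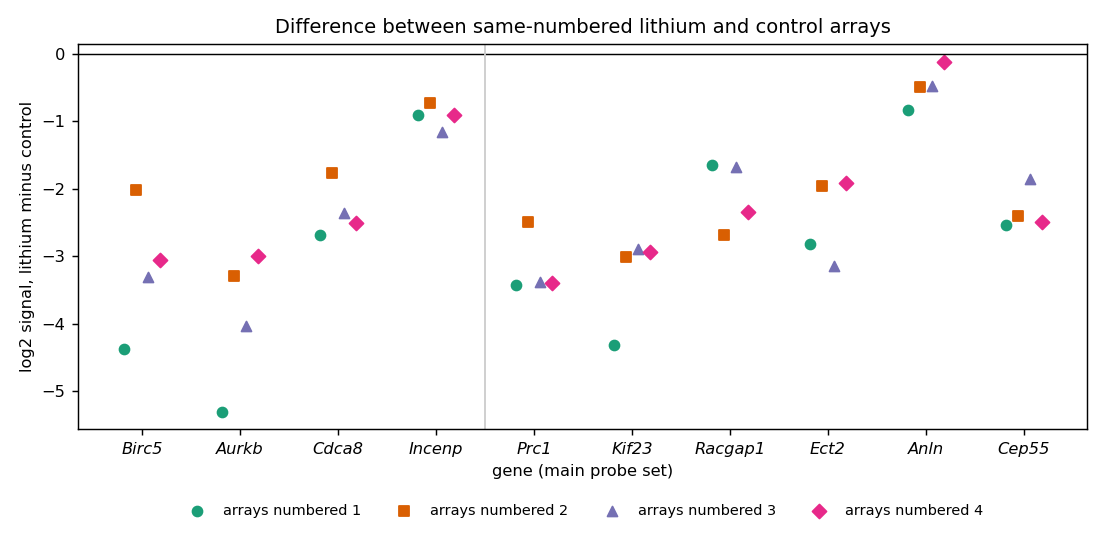
Log2 signal on each lithium array minus that on the control array of the same number (y axis) for the main probe set of each gene (x axis), with a marker and colour for each number. All 40 points are below 0, as they must be for the 9 genes whose groups did not overlap, and Birc5 on the arrays numbered 1 is at -4.38. The points of Aurkb for numbers 1 to 3 and of Kif23 for 1 and 2 rest on lithium signals near background.

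Some factors that recruit or activate the passenger complex fell as well. Of 9 measured genes on that list, 4 fell, none rose and 5 did not pass, with a median log2 fold change of -2.89. Sgo2a, shugoshin 2, a docking factor for the complex at centromeres, averaged 10.9 ± 1.67 in lithium and 52.8 ± 13.9 in control (SD, n = 4 each), a log2 fold change of -2.25 (adjusted p = 0.0139). Sgo2a passed with the replicate block (adjusted p = 0.0394) and with any 1 array left out (up to 0.0454). Ccnb2, cyclin B2, averaged 5.25 ± 3.87 in lithium and 87.3 ± 44.1 in control (SD, n = 4 each), a fitted log2 fold change of -4.30 (adjusted p = 0.0405). On lithium arrays 1 and 2 it was under the spike-in level (3.87 and 1.07), so the size is uncertain, and it passed in none of the 8 leave-outs (0.0511 to 0.107) and not with the block (0.0550). The other genes of the list that fell, named after their values were seen, were the kinases Plk1 (-2.89, adjusted p = 0.0469) and Aurka (-2.04, adjusted p = 0.0454), and of their leave-outs only Aurka without control array 2 (0.0217) passed. With the replicate block neither passed (Plk1 0.113, Aurka 0.0842).

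Other cell-cycle proteins of the midzone and midbody had a median of -2.03 over 9 genes, of which 2 fell and none rose. Arhgap11a, a GTPase-activating protein for RhoA, had 56.7, 58.7, 36.1 and 40.4 on lithium arrays, against 131, 126, 139 and 147 on control arrays, with a log2 fold change of -1.53 (adjusted p = 0.0164). It was lower on lithium arrays 3 and 4 than on 1 and 2, and it missed the threshold with the replicate block (0.0719) and without control array 1, 3 or 4 (up to 0.0534). Nusap1, a spindle protein that bundles microtubules, averaged 24.4 ± 6.28 in lithium and 127 ± 47.9 in control (SD, n = 4 each), with a log2 fold change of -2.34 (adjusted p = 0.0233). Nusap1 passed only without lithium array 3 or control array 2 among the leave-outs, which reached 0.0646, and missed with the block (0.0540).

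Proteins of the contractile ring that serve the cytoskeleton throughout the cell cycle were mostly near 0. Of 14 measured genes, 1 fell and none rose, with a median of -0.14 and a range of -1.09 to 0.06. The gene that fell was Septin6, a septin filament subunit, with 17.8, 17.7, 18.6 and 20.3 on lithium arrays, against 43.6, 29.5, 52.5 and 36.3 on control arrays (log2 fold change -1.09, adjusted p = 0.0363). Without any 1 array other than control array 2 it missed the threshold (up to 0.0954), as it did with the block (0.0842). Of 18 ESCRT and abscission genes, which act downstream of Cep55 and also in membrane traffic of cells at rest, none fell or rose in limma (median 0.16, range -1.08 to 0.46). At an unadjusted limma p under 0.05, 6 of them were higher and 1 lower, where 8087 of all 45037 probe sets were under it. The lower gene, Chmp4c, set the low end of the range and was dim (mean 4.21 in lithium, 7.69 in control), with 2 lithium arrays under the spike-in level. Among 4 general proliferation markers (median -3.39), Ccna2 (cyclin A2) fell, averaging 19.9 ± 7.47 in lithium and 183 ± 74.6 in control (SD, n = 4 each), and its log2 fold change was -3.18 (adjusted p = 0.0199, or 0.0386 with the block). It missed the threshold, at up to 0.0591, without lithium array 1 or control array 1, 3 or 4. Mki67 (-4.63, adjusted p = 0.0768, with lithium array 1 under the spike-in level), Top2a (-3.60, adjusted p = 0.0574) and Pcna (-0.14, adjusted p = 0.576) did not pass.

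**Figure D5:**
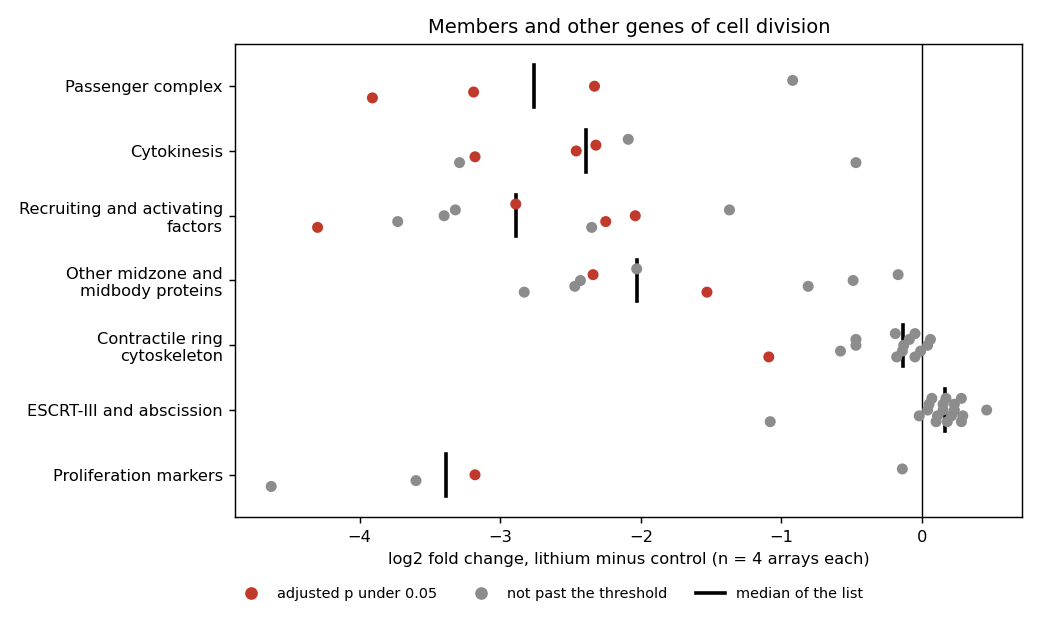
Log2 fold change, lithium minus control, of the main probe set of each gene (points, red where the adjusted p was under 0.05) for the 10 genes and 5 lists of other cell-division genes (rows), with the median of each list as a black bar. The medians are -2.76 for the passenger complex and -2.39 for cytokinesis, next to -2.89 for recruiting and activating factors, -2.03 for other midzone and midbody proteins, -3.39 for proliferation markers, -0.14 for the contractile ring cytoskeleton and 0.16 for ESCRT-III and abscission.

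Markers of the cells a nerve culture can hold were read beside these values. Summed signals of fibroblast markers were 699 to 2102 on lithium arrays and 3143 to 5012 on control arrays (median log2 fold change -1.77, 2 of 6 genes fell), and those of endothelial markers were 144 to 319 on lithium arrays and 389 to 622 on control arrays (-0.82, 1 of 6 fell). With the replicate block none of these 3 markers passed (adjusted p = 0.125 for Lum, 0.0550 for Pdgfrb and 0.0989 for Kdr). The endothelial markers did not differ alike. Flt1, the brightest in control, averaged 89.6 in lithium and 303 in control (log2 fold change -2.03, limma adjusted p = 0.0992), and Cdh5 had -1.63 and Kdr -1.35. Cldn5 (-0.28), Tek (-0.22) and Pecam1 (0.10) overlapped between groups. The fibroblast and endothelial sums were lower in lithium, as most of the 10 genes were, and the part of these cells in the result was not tested. By limma, no gene passed in either direction among markers of astrocytes (7 genes, sums of 6371 to 7590 in lithium and 6834 to 7215 in control), mature oligodendrocytes (6 genes, 8756 to 11978 and 8769 to 9485), oligodendrocyte precursors (7 genes, 1617 to 1888 and 1746 to 2173) or microglia (7 genes, 773 to 1097 and 969 to 1361), each pair with lithium given first. At an unadjusted p under 0.05 these lists held 2 lower genes and 1 higher, where 8087 of all 45037 probe sets were under that p. Pdgfra, a receptor of oligodendrocyte precursors and of fibroblasts, averaged 208 ± 117 in lithium and 527 ± 83.5 in control (SD, n = 4 each), with a log2 fold change of -1.52 (adjusted p = 0.124). Olig2, a transcription factor of the oligodendrocyte lineage on the same list, averaged 297 ± 77.2 in lithium and 171 ± 19.7 in control (SD, n = 4 each), a value of 0.77 on that scale (adjusted p = 0.103). The photoreceptor genes Crx, Pde6b and Prph2 were below the spike-in level on each array, and the 5 photoreceptor markers measured summed to 19.9 to 40.8 in lithium and 16.1 to 34.5 in control. The log2 ratio of 3′ to 5′ probe sets, a sign of RNA quality, was 0.43 ± 0.07 in lithium and 0.37 ± 0.02 in control for Gapdh (SD, n = 4 each, exact permutation p = 0.171), and 0.66 ± 0.10 in lithium and 0.68 ± 0.03 in control for Actb (exact p = 0.657).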

How the data were processed

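RNA of 8 samples was hybridised to Affymetrix Mouse GeneChip 430 2.0 arrays. The authors made the deposited intensity values with MAS5, on a linear scale with the same trimmed mean of 100 on each array, and name GeneSpring GX. Sources used here name no genome build, detection calls were not used, and depth has no meaning for arrays, whose number (4 a group) limits the precision. Values under 1 (14.5%) were set to 1 and log2 was taken. Of 45101 probe sets, 64 controls were left out. Platform annotation gave 1 symbol for 34945 of the 45037 tested, several for 932 and none for 9160. Lithium minus control was fitted with limma 3.58.1 in R 4.3.3 over all probe sets, with Benjamini-Hochberg adjustment and a threshold of 0.05, and the 3 differences between genes with an exact permutation test in Python 3.11.15 over 70 assignments. Scripts were tested on simulated data.

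A lower bound set the control mean against the higher, on each array, of the probe's own signal and the highest of 27 bacterial spike-in probe sets. In each list of cell-division genes the rule was to name the 2 called genes with the lowest adjusted p per direction. Plk1, Aurka, Chmp4c, Mki67, Top2a and Pcna are named outside that rule. The 10 genes and all lists were chosen with earlier results of these data known. Sequences came from RefSeq GRCm38.p6.

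Deviations from the group means correlated between same-numbered lithium and control arrays (r = 0.130 to 0.197, every pair above 0.1), so the numbers were taken as pairing the samples. The main fit does not use this pairing, and the replicate block does. Different numbers within arrays 1 and 2 or within 3 and 4 correlated nearly as well (0.0706 to 0.131), and all others were below 0 (-0.181 to -0.0665). Deviations from a group mean sum to 0, so values above 0 with some arrays force values below 0 with others. The pairing comes from the data, and the labels do not say what a number stands for. Alternatives were quantile normalization, median centring, log2(signal + 16), a minimum signal of 200, array weights, trended and robust variance, the replicate block, a term setting arrays 1 and 2 against 3 and 4, a gene's probe sets averaged, each array left out, and, added after seeing the data, fits within arrays 1 and 2 and within arrays 3 and 4, and the differences with values near background raised or such genes left out.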

Additional observations from a re-analysis of the deposited data

Results flagged for a closer look

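In 6 of the 54 groups of 4 arrays examined (each probe set of the 10 genes and each of the 3 differences, in each group), the highest or lowest array lay apart from the other 3 by more than Dixon's 95% limit allows, and chance alone gives about 1 such group in 20. Ect2 was 31.7 on lithium array 4, the highest of its group (gap 0.902 of the range). The difference of Incenp from the mean of Birc5, Aurkb and Cdca8 was 4.13 on lithium array 1, the highest of its group (gap 0.877). The other 4 were dim probe sets. In order of brightness, the third of Incenp was 1.31 on lithium array 1 (gap 0.854), the fourth was 0.252 on control array 2 (gap 0.859) and the fifth was 3.08 on lithium array 2 (gap 0.871). The dimmest of Racgap1 was 1.29 on control array 4, where the other 3 control arrays were under the floor of 1.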

How the results depend on the processing

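The log2 fold changes of the 10 main probe sets kept their sign under each alternative that tested them. Of 45037 probe sets, 1050 passed as reported, 1735 with log2(signal + 16), 685 with a minimum signal of 200, 124 with the replicate block, 2834 with a term that sets arrays 1 and 2 against 3 and 4, and 169 to 617 with 1 array left out. The minimum signal left 8401 to test. With quantile normalization 1399 passed, with median centring 1121, with trended and robust variance 1360 and with array weights 1217. Among the 24 probe sets of the 10 genes, 10 passed as reported, 5 with the minimum signal, 4 with the replicate block, 16 with the term and 5 to 9 with 1 array left out. Of the 10 genes, 6 passed as reported, 7 each with quantile normalization, median centring, log2(signal + 16), array weights and probe sets averaged per gene, 8 with trended and robust variance, 9 with the term, 4 of the 5 tested with the minimum signal, 2 with the replicate block and 3 to 5 with 1 array left out. The 5 tested met the minimum through the control mean alone, each with a lithium mean under 200, so their passes there are no support. For probe sets averaged per gene, the share of all genes was not counted. Of the factors that recruit the passenger complex, 4 passed as reported, 7 each with quantile normalization, median centring, log2(signal + 16) and trended and robust variance, 0 with the minimum signal (where fewer genes are tested), 2 with the replicate block, 9 with the term, 8 when a gene's probe sets were averaged and 1 to 3 with 1 array left out. Of the midzone and midbody proteins, 2 passed as reported, 5 each with median centring and trended and robust variance, 4 each with log2(signal + 16) and the term, 0 each with the minimum signal and the replicate block, and 0 to 2 with 1 array left out. Of the contractile ring genes, 1 passed as reported, 0 with the replicate block, 3 with the term and 0 to 1 with 1 array left out. Of the proliferation markers, 1 passed as reported, 2 with quantile normalization, 3 each with median centring, log2(signal + 16), trended and robust variance and the term, and 0 to 1 with 1 array left out. Racgap1 minus Kif23, 1.20 as reported, was -0.02 with log2(signal + 16), 0.75 when a gene's probe sets were averaged (adjusted p = 0.0857), 0.55 with values under the spike-in level raised to it (adjusted p = 0.143) and 0.69 to 1.53 with 1 array left out. The difference of Incenp from its partners was 1.95 to 2.35, and that of Anln 2.27 to 2.44, with 1 array left out. With the replicate block all 3 differences (2.22, 1.20 and 2.34) had an exact p of 0.125. The cause of these changes was not tested. Signals near the spike-in level, as for Aurkb and Kif23 in lithium, bound the size of a fold change.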
